A study of Mus musculus with 4 samples.

Results

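The 4 Hox clusters of the mouse were examined as accessible regions in 4 ATAC-seq libraries of J1 embryonic stem cells. The regions were chosen by position on the mm9 genome, as peaks with their midpoint in a window around each cluster. The windows were 52.08 to 52.24 Mb of chromosome 6 for Hoxa, 96.03 to 96.25 Mb of chromosome 11 for Hoxb, 102.73 to 102.88 Mb of chromosome 15 for Hoxc and 74.48 to 74.62 Mb of chromosome 2 for Hoxd. Merging the peaks of the 4 lists where they overlapped by at least 1 bp gave 27 Hox regions, of 50231 regions in the whole genome. The Hoxa and Hoxd windows held 9 regions each, the Hoxb window 5 and the Hoxc window 4. Each window was compared with the 500 kb on either side of it, its flanks, which held 111 regions in all.

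ATAC-seq marks accessible DNA through the insertion of adapters by the transposase Tn5. J1 is a line from the 129SV strain, and all cells were grown without feeders on gelatin, with 15% serum and 1000 units/mL of leukemia inhibitory factor. The comparison was of 2 DR+/+ libraries, from cells positive for MERVL and Zscan4c, with 2 DR-/- libraries, from cells negative for both. MERVL is an endogenous retrovirus and Zscan4c a member of a gene family, both active in the 2-cell embryo, and cells that express them are likened to that stage. The sources used here do not say how the cells were marked and sorted, or whether replicates were grown separately. The p-values therefore measure only the spread between these libraries, part of which can be technical. Values of a population are given with replicate 1 first.

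Hox genes encode homeodomain transcription factors that give cells their position along the body axis and in the limbs. Genes at one end of a cluster act in anterior structures and those at the other end, numbered highest, in posterior structures. In embryonic stem cells the clusters are known for being covered by Polycomb complexes, which keep developmental genes silent, and the genes are turned on in sequence as cells differentiate. In RefSeq's GRCm38.p6 annotation the 38 member genes follow each other with increasing coordinate from Hoxa2 to Hoxa13, from Hoxb13 to Hoxb1, from Hoxc13 to Hoxc4 and from Hoxd13 to Hoxd1. Beyond the last Hoxa gene lies Evx1 and before the first Hoxd gene lies Evx2, homeobox genes related to Drosophila even-skipped. The files are on mm9, so no peak was assigned to a gene here, and regions are named by position.

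The starts of the Hoxa and Hoxd genes, the clusters whose windows held the most regions, are often rich in the dinucleotide CG. RefSeq's GRCm38.p6 table held upstream sequences for 18 of these 19 genes, 20 starts in all. For Hoxb it held them for 3 of 10 genes and for Hoxc for 1 of 9, and these clusters were not compared. In the 250 bases before the start, CG (which reads the same on both strands) occurred 2 to 35 times, with a median of 13. The median over all 32851 starts of the table was 6, and 37.8% of them held 10 or more CG, as did 65.0% (13 of 20) of the Hoxa and Hoxd starts. The most CG-rich start of each cluster is shown with CG in capitals, 35 in Hoxa13 (minus strand) and 31 in Hoxd13 (plus strand), genes that pattern the digits and the genital region. These letters describe the genes, and whether a peak lies there was not analysed.
Hoxa13: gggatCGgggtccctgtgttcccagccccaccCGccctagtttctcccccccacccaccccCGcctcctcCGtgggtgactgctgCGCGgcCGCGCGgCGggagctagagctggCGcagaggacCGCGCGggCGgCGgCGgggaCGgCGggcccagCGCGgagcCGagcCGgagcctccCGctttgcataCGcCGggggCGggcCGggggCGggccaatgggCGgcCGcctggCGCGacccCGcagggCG
Hoxd13: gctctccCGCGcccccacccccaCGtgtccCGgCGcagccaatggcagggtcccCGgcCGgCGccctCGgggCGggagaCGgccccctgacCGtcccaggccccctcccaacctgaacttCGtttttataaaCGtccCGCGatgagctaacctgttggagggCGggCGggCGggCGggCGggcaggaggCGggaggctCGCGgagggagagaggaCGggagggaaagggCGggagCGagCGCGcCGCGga

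The libraries differed in the number of peaks, which touches every count given here. The DR+/+ lists had 40933 and 26866 entries, the DR-/- lists 21630 and 24432. The long list of DR+/+ replicate 1 stands apart. How many reads lie behind each list is unknown. The pileup at the summit, a whole number of reads recovered from the fold enrichment and p-value, had a median of 15 to 16 reads in all 4 lists. That median covers called peaks only. The lowest background, recovered in the same way, was 1.664 and 1.62 reads in DR+/+ and 1.308 and 1.474 in DR-/-. Whether this reflects depth was not tested, so read counts of the populations may differ in scale.

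Accessible sites were called in both populations in all 4 Hox clusters. In the DR+/+ libraries 21 and 12 peaks fell in the windows, in the DR-/- libraries 11 and 13. Only DR+/+ replicate 1 lay above the DR-/- libraries. The means were 16.5 ± 6.36 peaks in DR+/+ and 12 ± 1.41 in DR-/- (SD, n = 2 each; two-sided exact permutation test, p = 0.667). No test of 2 against 2 libraries can give a p below 0.333. Without DR+/+ replicate 1 the difference of 4.5 peaks was 0, and when the lists were shortened to an equal 21630 peaks, the strongest of each, it was -2.5. As a share of its list, each DR+/+ library had 0.0513% and 0.0447% of its peaks in the Hox windows, and each DR-/- library 0.0509% and 0.0532%. These shares overlapped between the populations (exact permutation test, p = 0.667). With the shortened lists the difference in share was -0.0116 percentage points, DR-/- being higher (exact permutation test, p = 0.333).

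**Figure D1:**
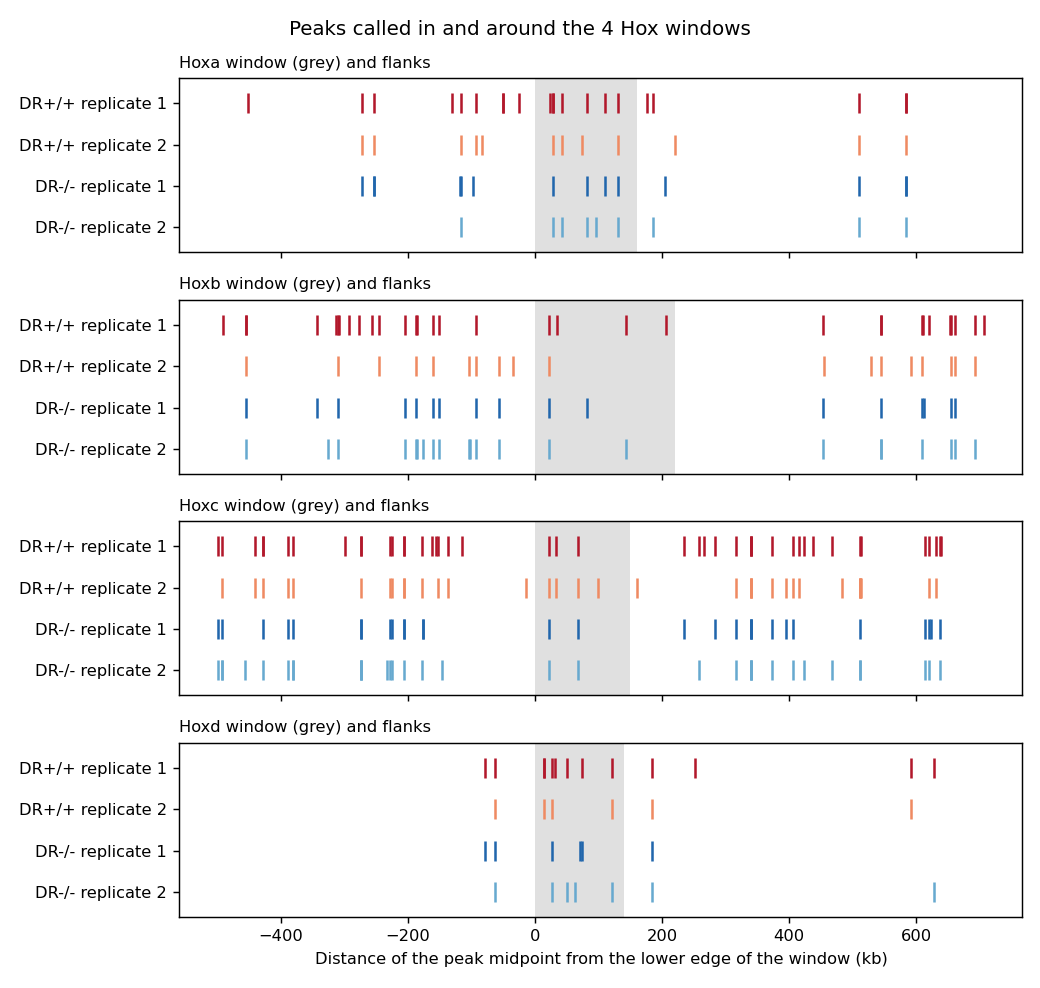
Each tick is 1 peak, placed by the distance of its midpoint from the lower edge of the window in kb, with 1 row per library and the window in grey. The Hoxd window holds 3 to 7 peaks per library between flanks with 3 to 6, whereas the Hoxc window holds 2 to 4 between flanks with 27 to 41.

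The clusters differed in how they stood out from their surroundings. Hoxa and Hoxd were islands of accessible sites, denser in peaks than their flanks in 4 of 4 libraries, while Hoxb and Hoxc were sparser than their flanks in 4 of 4. For each cluster the 4 libraries were compared by an exact two-sided permutation test with sign flips, which gave p = 0.125 for each of the 4 clusters, the smallest p this test can give, and 0.125 after Benjamini-Hochberg adjustment over the 4.

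Hoxd contrasted most with its flanks. Its window had 5.0 and 2.14 peaks per 100 kb in DR+/+ cells, against 0.6 and 0.3 in the flanks. In DR-/- cells it had 2.14 and 2.86, against 0.3 in the flanks of both libraries. The window was thus 7.14 to 9.52 times as dense as the flanks, with a mean log2 ratio of 3.00 ± 0.20 (SD, n = 4 libraries). The density was also above that of the rest of chromosome 2 in each library, which was 0.893 to 1.69 peaks per 100 kb. The flanks rested on 3 to 6 peaks per library, so their density is known only coarsely. Against flanks of 1 Mb the mean log2 ratio was 1.65.

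The Hoxa window had 4.38 and 2.5 peaks per 100 kb in DR+/+ cells, against 1.4 and 0.8 in its flanks. In DR-/- cells it had 2.5 and 3.12, against 1.0 and 0.4. The log2 ratio averaged 1.89 ± 0.73 (SD, n = 4 libraries), and the largest ratio, 7.81-fold in DR-/- replicate 2, went with a lower flank that held 1 peak. The rest of chromosome 6 held 0.784 to 1.5 peaks per 100 kb, below the Hoxa window in each library.

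In the Hoxb window, the longest of the 4 at 220 kb, peaks were sparse. It had 1.82 and 0.455 peaks per 100 kb in DR+/+ cells and 0.909 in both DR-/- libraries. Its flanks had 2.8 and 1.7 in DR+/+ and 1.5 and 2.0 in DR-/-. The mean log2 ratio was -1.10 ± 0.58 (SD, n = 4 libraries). The rest of chromosome 11 held 1.02 to 1.83 peaks per 100 kb, and the Hoxb window was below it in each library, by 1.82 against 1.83 in DR+/+ replicate 1. With lists of equal length, 1 library had no peak left in the Hoxb window, and no ratio was taken.

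The Hoxc window had 2.0 and 2.67 peaks per 100 kb in DR+/+ cells and 1.33 in both DR-/- libraries. Its flanks were the densest of the 4 clusters, with 4.1 and 3.0 in DR+/+ and 2.7 and 3.1 in DR-/-. The log2 ratio averaged -0.86 ± 0.47 (SD, n = 4 libraries), with DR+/+ replicate 2 close to its flanks at -0.17. Compared with the rest of chromosome 15 (0.736 to 1.53 peaks per 100 kb) the Hoxc window was the denser in each library. With flanks of 1 Mb the mean log2 ratio was -0.34.

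The density of the windows relative to their flanks gave no stable order of the populations. Over the 4 clusters together the log2 ratio was 0.49 and 0.30 for DR+/+ and 0.26 and 0.42 for DR-/-, and the groups overlapped (exact permutation test, p = 0.667). The mean of these 4 values, 0.37 ± 0.11 (SD, n = 4), rests on Hoxa and Hoxd. It was -0.07 without Hoxa and -0.12 without Hoxd, and -0.05 when bases under peaks were counted in place of peaks. The difference between the populations was 0.06 (DR+/+ minus DR-/-). With lists of equal length it was -0.23 and with peaks of −log10 q of at least 3 alone it was 0.19, opposite directions that both gave the smallest possible p of 0.333 in the exact permutation test.

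**Figure D2:**
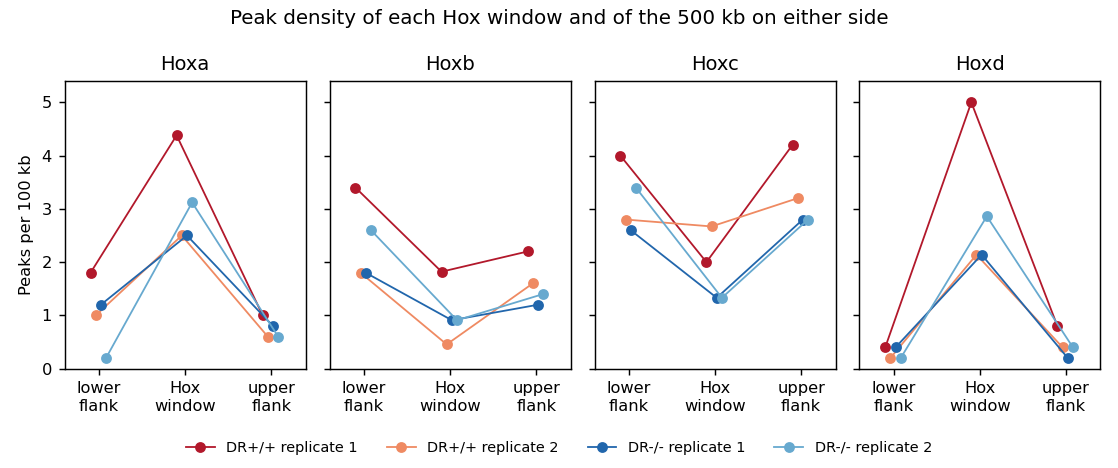
Peaks per 100 kb are plotted for the lower flank, the window and the upper flank of each cluster, with 1 line per library. The lines peak at the window for Hoxa and Hoxd and, for Hoxb and Hoxc, lie below both flanks in every library.

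Pooled over the 4 clusters, the Hox peaks ranked low within their lists, but the clusters differed. Ranked by q-value, 2 of 21 Hox peaks in DR+/+ replicate 1 were in the top quartile of the list, 1 of 12 in DR+/+ replicate 2, 1 of 11 in DR-/- replicate 1 and 1 of 13 in DR-/- replicate 2. These shares were 7.69 to 9.52%, compared with 23.6 to 31.0% of the flanking peaks. The median Hox peak stood at percentile 34.2 and 37.3 of the DR+/+ lists, where the median flanking peak stood at 51.1 and 53.0. In the DR-/- lists it stood at 38.6 both times, the flanking one at 53.2 and 48.3. The mean gap was -14.2 ± 3.16 percentile points (SD, n = 4 libraries; exact permutation test with sign flips, p = 0.125). Without the Hoxa cluster the gap was -6.88 (exact permutation test, p = 0.25). The pooled medians mix clusters unequally, since Hoxa and Hoxd gave most window peaks and Hoxb and Hoxc most flanking peaks. Taken singly, the median percentile was below the flanks in 3 of 4 libraries for Hoxa and Hoxd, in 2 of 4 for Hoxb and in 1 of 4 for Hoxc. In Hoxc it was 61.4 against 55.0 in DR+/+ replicate 1, 65.7 against 61.7 in DR-/- replicate 1 and 61.9 against 55.1 in DR-/- replicate 2, and lower, at 41.5 against 53.0, in DR+/+ replicate 2. In Hoxb it reached 70.7 against 34.8 in DR-/- replicate 2, on 2 peaks. The fold enrichment over local background, the authors' own value, ranged from 3.77 to 7.27 over the Hox peaks.

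Pooled in the same way, Hox peaks had a lower median width than flanking peaks in 4 of 4 libraries. It was 136 and 158 bp in DR+/+ cells, against 192 and 200 bp in the flanks. In DR-/- cells it was 121 and 123 bp, against 182 and 200 bp. The shortest peaks of the whole lists measured 108 and 115 bp in DR+/+ and 104 and 103 bp in DR-/-. Widths of the 2 populations thus have different lower limits and were compared here only within a library. The mean difference was -59.0 ± 14.8 bp (SD, n = 4 libraries; exact permutation test with sign flips, p = 0.125), and without the Hoxa cluster it was -28.2 bp. Singly, the windows of Hoxa and Hoxd had the narrower peaks in 4 of 4 libraries and that of Hoxb in 3 of 4, whereas that of Hoxc did in 1 of 4. The Hoxc medians were 219 against 206 bp in DR+/+ replicate 1, 174 against 188 bp in DR+/+ replicate 2, 250 against 194 bp in DR-/- replicate 1 and 239 against 205 bp in DR-/- replicate 2. In bases under peaks, the mean log2 ratio of window to flanks was 1.32 for Hoxa, 2.58 for Hoxd, -1.34 for Hoxb and -0.86 for Hoxc.

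**Figure D3:**
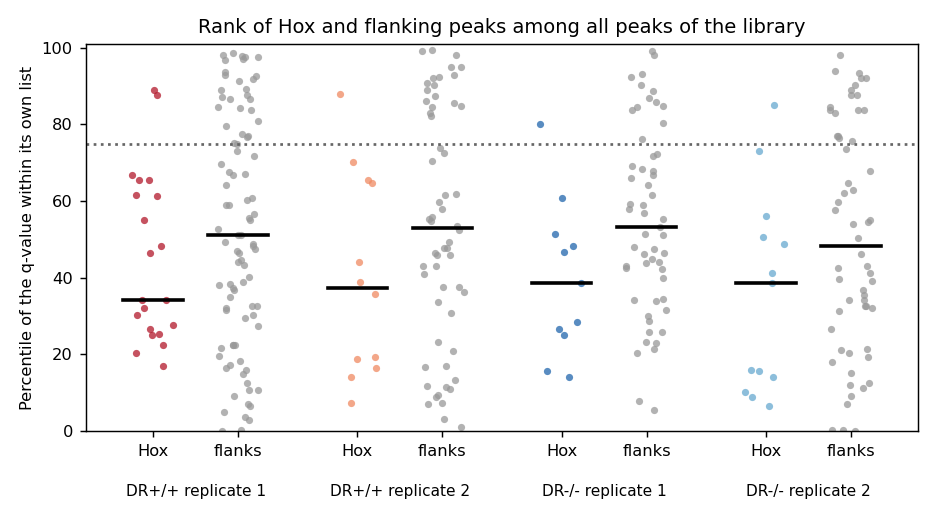
Each point is 1 peak, placed by the percentile of its q-value within its own list, with Hox peaks in colour, flanking peaks in grey, medians as bars and the top quartile above the dotted line. In each library 1 or 2 Hox peaks lie above the line, and the Hox median lies below that of the flanks.

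Of the 27 Hox regions, 5 were called in all 4 libraries (18.5%, 95% Wilson interval 8.18 to 36.7%), against 24.7% over all regions of the genome and 27.9% of the flanking regions. A further 11 were called in 1 library alone (40.7%, against 44.1% over all regions), 5 of them in DR+/+ replicate 1 and 2 in each of the other libraries. The interval holds both backgrounds, so the share of common regions was not distinguishable from them. With lists of equal length 2 of 21 Hox regions were common (9.52%), against 28.5% over all regions, and this gap was not tested. All intervals cover counting error only.

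The 5 regions called in all 4 libraries lay in all 4 clusters, and 4 of them were closer to the lower than to the upper edge of their window. The strongest was in the Hoxc window at 102751056 to 102751438 of chromosome 15. Its summit had 27 and 25 reads in DR+/+ cells and 22 and 20 in DR-/- cells. Over the median of all common regions of the list these were 1.17 and 1.32 in DR+/+ and 1.29 and 1.05 in DR-/-, which overlap. It was the only Hox region above percentile 70 in all 4 lists, at 88.9 and 87.9 in DR+/+ and 80.0 and 73.1 in DR-/-, and at 383 bp the widest of the 5.

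The other common region of Hoxc, at 102796922 to 102797140, had 15 and 13 reads in DR+/+ cells and 14 in both DR-/- libraries. In Hoxd the common region, at 74505883 to 74506149 of chromosome 2, had 18 and 13 reads in DR+/+ cells and 14 and 16 in DR-/- cells. In both regions the DR-/- read counts lay between the DR+/+ ones. Over the median of all common regions of the list the DR-/- values were the higher in both. These were 0.652 and 0.684 in DR+/+ and 0.824 and 0.737 in DR-/- for the Hoxc region. For the Hoxd region they were 0.783 and 0.684, and 0.824 and 0.842.

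In Hoxb the common region, at 96051554 to 96051843 of chromosome 11, varied most between libraries of 1 population. It had 15 and 11 reads in DR+/+ cells, and 14 and 22 in DR-/- cells. Over the median of all common regions these were 0.652 and 0.579, and 0.824 and 1.16. In Hoxa the common region, at 52210852 to 52210994 of chromosome 6, was narrow and faint in every list, with 13 reads in both DR+/+ libraries and 12 in both DR-/- libraries. Over the median these were 0.565 and 0.684 in DR+/+ and 0.706 and 0.632 in DR-/-, which overlap. The summits of a common Hox region lay within 51 to 121 bp of each other over the 4 lists, with a median of 59 bp, against 80 bp over all common regions.

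**Figure D4:**
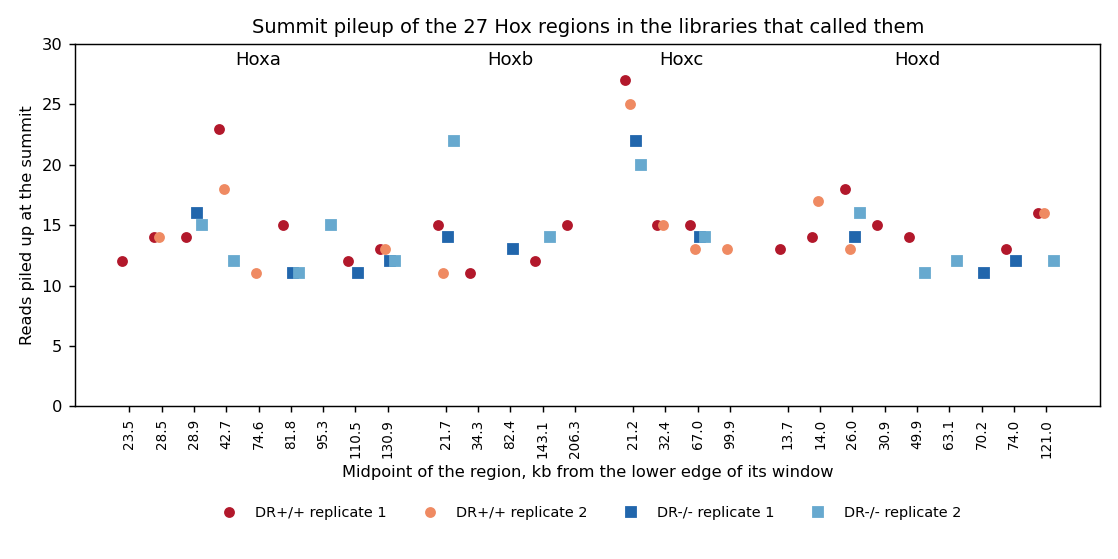
Reads piled up at the summit are plotted for each of the 27 Hox regions, in order of position within the window, with circles for DR+/+ and squares for DR-/- libraries, and no point where a library called no peak. Most points lie between 11 and 18 reads, and the Hoxc region 21.2 kb from the window's edge reaches 20 to 27 in all 4 libraries.

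Relative to all regions common to the 4 lists, the median of the 5 Hox regions was low in each list, although the Hoxc region at 102751056 was above the median of all common regions in 4 of 4 lists and the Hoxb region in DR-/- replicate 2. Their median summit pileup was 15 and 13 reads in DR+/+ cells and 14 and 16 in DR-/- cells, values that overlap. Over all 12412 common regions the median was 23 and 19 reads in DR+/+ and 17 and 19 in DR-/-. The ratio of the medians was 0.652 and 0.684 in DR+/+ and 0.824 and 0.842 in DR-/-, with no overlap (difference -0.165, exact permutation test, p = 0.333, the smallest possible). With lists of equal length 2 common Hox regions were left (9.52% of 21, against 28.5% over all regions) and the difference was 0.00774. Without DR-/- replicate 1 it was -0.053. The part of depth in this ratio was not tested.

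The widths of the 5 common regions gave no call between the populations. In a limma fit of centred log2 widths over all 12412 common regions, 0 of 12412 (0%) passed an adjusted p of 0.05, and 1178 had an unadjusted p below 0.05, none of them among the 5 Hox regions. Without DR-/- replicate 1 and without DR-/- replicate 2 it called 106 and 119 regions, and again no Hox region. The smallest adjusted p of a Hox region was 0.662, for the Hoxc region at 102796922 (219 and 115 bp in DR+/+, 186 and 192 bp in DR-/-; log2 difference -0.52 ± 0.31, SE). On simulated widths this fit recovered 0% of regions changed by 1 on the log2 scale, 29% of those changed by 2 and 72% of those changed by 3. Smaller changes would thus be missed. The simulated widths had no lower limit, whereas the shortest called peaks measured 103 to 115 bp. A region narrowed below that would not be called, so these rates may not hold for the Hox regions.

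Regions found in both libraries of 1 population alone were few. In both DR+/+ and neither DR-/- library 3 of 27 Hox regions were called (11.1%, 95% Wilson interval 3.85 to 28.1%), against 9.08% over all regions, a share near the background. In both DR-/- and neither DR+/+ library the count was 0 of 27 (95% Wilson interval 0 to 12.5%), against 1.38% over all regions. With lists of equal length each class held 1 of 21 Hox regions (4.76%), against 4.93% and 4.17% of all regions for DR+/+ and DR-/-. Leaving out a library raised the share over all regions as well. Without DR+/+ replicate 2 the DR+/+ class had 8 Hox regions (32.0%, against 39.0% over all regions). It had 5 without DR+/+ replicate 1 (22.7%, against 22.8%) and 5 without DR-/- replicate 2 (20.0%, against 15.0%). The DR-/- class had 2 Hox regions without DR+/+ replicate 1 (9.09%, against 6.56%), 2 without DR-/- replicate 1 (8.0%, against 7.5%) and 2 without DR-/- replicate 2 (8.0%, against 6.1%).

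The 3 DR+/+ regions lay 1 each in Hoxa, Hoxc and Hoxd. The Hoxd region, at 74493868 to 74494089, had summits of 14 and 17 reads, and DR+/+ replicate 1 alone had a further peak 141 bp below it, picked after its values were seen, with 13 reads. The Hoxc region, at 102762300 to 102762452, had 15 reads in both DR+/+ libraries. The Hoxa region, at 52108357 to 52108643 and the widest of that window at 287 bp after merging, had 14 reads in both. It joined a peak of 125 bp in DR+/+ replicate 1 with 1 of 179 bp in DR+/+ replicate 2. Their summits lay 169 bp apart, so the 2 lists may not mark the same site. The widest single peak of the Hoxa window measured 210 bp, in DR+/+ replicate 1 at 52122565. None of the 3 DR+/+ regions reached the top quartile of either list.

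The Hoxa region had a neighbour that was also open in DR-/- cells. At 52108800 to 52108948, a site picked after its values were seen and 156 bp above it, a peak was called in DR+/+ replicate 1 and in both DR-/- libraries, with 14 reads in the former and 16 and 15 in the latter. Merged over gaps of 500 bp, this pair was 1 region open in all 4 libraries. That setting gave 6 common and 2 DR+/+-specific Hox regions among 25 (24% and 8%), against 27.7% and 9.59% over all regions.

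The widest of all Hox regions lay in Hoxd at 74600826 to 74601243 and measured 418 bp. It had 16 reads in both DR+/+ libraries, with peaks of 407 and 272 bp. In DR-/- replicate 2 it had 12 reads and a peak of 103 bp, the shortest width in that list. It was not called in DR-/- replicate 1. A Hoxa region at 52122565 to 52122774, picked after its values were seen, had the same order. It had 23 and 18 reads in DR+/+ cells, 12 in DR-/- replicate 2 and no peak in DR-/- replicate 1. In both regions the DR+/+ libraries had more reads than DR-/- replicate 2, and presence in 2 against 2 lists allows no test per region. As many Hox regions, 2, showed the reverse, called in both DR-/- libraries and DR+/+ replicate 1 but not in DR+/+ replicate 2. At 52108800 in Hoxa the reads were 14 in DR+/+ replicate 1 and 16 and 15 in DR-/- cells. At 52161682 in Hoxa, picked after its values were seen, they were 15 in DR+/+ replicate 1 and 11 in both DR-/- libraries.

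In Hoxb the widest region was the common one, at 290 bp. The next, at 96172995 to 96173265 and picked after its values were seen, measured 271 bp and was called in DR+/+ replicate 1 with 12 reads and in DR-/- replicate 2 with 14. The other 3 Hoxb regions were each called in 1 library, at 11, 13 and 15 reads. Stretches of each window held no region in any library. The longest measured 63.0 kb in Hoxb, 50.0 kb in Hoxc, 46.7 kb in Hoxd and 31.7 kb in Hoxa. These were 28.6%, 33.4%, 33.4% and 19.8% of their windows. The Hoxc stretch ended at the upper edge of its window, not at a region. How these lengths compare with the rest of the genome was not analysed.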

How the data were processed

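The 4 ATAC-seq peak lists, 1 per library, were grouped by their titles into DR+/+ and DR-/- with 2 libraries each. The submitters' processing notes name mm9, SAMtools 0.1.19, Bowtie2 2.3.0 and FastQC 0.10.1, with no role. Libraries were paired-end, per the labels' protocols. Which peak caller was run, whether reads were shifted for Tn5 and how duplicates or multiply mapping reads were handled is not given in the sources used here. For each peak the authors deposited a score, a fold enrichment (ratio), −log10 p-value and −log10 q-value, and a summit offset in bp. Each belongs to its own library, and the lowest −log10 q-value was 1.31 to 1.32.

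Summit pileups were recovered by assuming that the fold is the pileup over the background, each with 1 added, and that p is the upper tail of a Poisson distribution. In 100% of peaks a whole number returned the deposited −log10 p-value within 0.001. A region was common if called in all 4 lists, and specific if called in both libraries of 1 population and in neither of the other. Densities were compared by exact permutation tests over libraries. Log2 widths, centred on each library's median, were fitted with limma 3.58.1 (R 4.3.3) and adjusted by Benjamini-Hochberg over all common regions. Python 3.11.15, pandas 2.3.3, NumPy 2.4.6, SciPy 1.17.1 and Matplotlib 3.10.9 were used, and the interval and width code was tested on simulated data. No 2 lists shared more than 5 identical peaks, so all 4 libraries were kept.

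The windows, members and tests were chosen with earlier results of these data known. Regions named are, per cluster, the 3 common ones with the highest mean q-value percentile, the widest, and every specific one, and others are said to be picked later. Single-cluster densities and comparisons of rank and width with the flanks were added after seeing the data. Alternatives were lists of equal length, −log10 q of at least 3, any overlap with the window, merging over 500 bp, 50% overlap, flanks of 250 kb and 1 Mb, covered bases, uncentred widths, regions of at least 200 bp, a replicate block and leaving out single libraries. No annotation or genome of mm9 was used, so regions carry no gene name or sequence.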

Additional observations from a re-analysis of the deposited data

How the results depend on the processing

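Of 220 values under alternative settings, 11 changed sign and 13 counts moved by over 1.5 times or away from 0. Among the other 196 is a difference of 0 peaks without DR+/+ replicate 1, which has no direction. With lists of equal length, the difference in the number of Hox peaks was -2.5, that of the log2 density ratio -0.23 and that of the summit pileup ratio 0.00774 (DR+/+ minus DR-/-). Of the 21 Hox regions left, 2 were common (9.52%, against 28.5% over all regions). In that setting 1 was DR+/+-specific (4.76%, against 4.93%) and 1 DR-/--specific (4.76%, against 4.17%). With covered bases the mean log2 density ratio of the 4 windows together was -0.0494. Without the Hoxa and the Hoxd cluster it was -0.0698 and -0.122. Without Hoxc, 3 of 23 Hox regions were common (13.0%, against 24.7% over all regions) and the difference of the density ratio was -0.145. With the replicate 2 libraries alone the differences were -1 peak and -0.115. The causes were not tested.

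Leaving out each library in turn, the difference in peaks ranged from 0 to 9, that of the density ratio from -0.0333 to 0.156 (below 0 without DR+/+ replicate 1 and without DR-/- replicate 1), DR+/+-specific regions from 3 to 8 and DR-/--specific ones from 0 to 2. A class then needs 1 library fewer, which can raise such counts, and in the width fit the lone library is assumed to vary like the pair. Of the common regions of the genome, 0 to 119 differed in width, none of them in a Hox window. The single-cluster log2 ratios ranged from 1.54 to 2.08 in Hoxa, -1.25 to -0.828 in Hoxb, -1.09 to -0.741 in Hoxc and 2.91 to 3.05 in Hoxd.

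Same-numbered libraries did not deviate together (correlation of width deviations -0.000338 over 12412 common regions). With a replicate block, 37 common regions differed in width, none of them Hox regions. The block left the differences at 4.5 peaks, -0.00405 percentage points, 0.06 in log2 density ratio and -0.165 in pileup ratio, and 2 pairs cannot give an exact p below 0.5. Peaks of 11 to 27 reads limit all presence calls, so a site missing from a list may lie just under its threshold.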
